A study of Mus musculus with 6 samples.

Results

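Starburst amacrine cells of the degenerating mouse retina were examined as nuclei chosen by their own measured UMIs, those that held the transcripts of acetylcholine synthesis and transport together with those of GABA synthesis. A nucleus was taken as starburst when it had a UMI, a count of 1 original RNA molecule, of at least 2 of Chat, Slc5a7, Slc18a3 and Megf10, with Chat or Slc5a7 among them, and at least 1 UMI of Gad1 or Gad2. Nuclei with any UMI of Slc6a9, Slc17a6, Trpm1 or Abca8a, genes of glycinergic amacrine, ganglion, ON bipolar and Muller cells, were not counted. This gave 542 of 56205 retained nuclei. The comparison class was the other 5746 nuclei with Gad1 or Gad2 and none of the same 4 exclusion genes. All nuclei came from rd10 mice of the strain B6.CXB1-Pde6b-rd10/J, in which a mutation of the rod phosphodiesterase gene Pde6b causes loss of rods, so the saline controls carried it too. An eye of each mouse was injected at postnatal day 18 (P18) with 20 ng of recombinant IL-27, a cytokine of the interleukin-12 family, or with saline, and retinas were collected at P20. Single-nucleus RNA libraries were made from 3 saline retinas (replicates 1, 2 and 6) and 3 IL-27 retinas (replicates 4, 5 and 10), and the question was how IL-27 alters gene expression in each retinal cell type. Uninjected or non-degenerating retinas were not analysed here.

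Starburst cells are the cholinergic interneurons of the retina, and they release GABA as well. They form a mirror-symmetric pair of populations, OFF cells in the inner nuclear layer and ON cells in the ganglion cell layer, whose dendrites run in separate strata of the inner plexiform layer. They are known for the waves of activity of the immature retina and for the inhibition that makes ganglion cells selective for the direction of motion.

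The 6 libraries held 8968 to 9965 barcodes and 36678332 to 48260748 UMIs. Of 55837 distinct retained barcodes 367 occurred in more than 1 library. Among the starburst nuclei alone, no barcode occurred more than once. The starburst nuclei had a median of 7685 UMIs, the comparison nuclei 5229.5. Counts were summed over the nuclei of a class in each library, giving 608263 to 891983 UMIs per library for starburst nuclei and 4766481 to 6253645 for the comparison class. Levels below are CPM, counts divided by the scaled total of such a sum and expressed per 1e6, given as mean ± SD over libraries (n = 6 unless stated), and log2FC is the fitted log2 fold change. The labels do not say how animals map to libraries, so p-values measure the spread between these libraries.

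The genes that defined the class are given as a description. Chat, the enzyme that makes acetylcholine, was at 517, 514 and 444 CPM with saline and at 505, 459 and 441 CPM with IL-27, and Chat in the comparison nuclei lay between 6.89 and 12.1 CPM. Slc5a7, the transporter that takes up choline, was at 363, 372 and 436 CPM with saline and at 344, 409 and 559 CPM with IL-27. Slc18a3, which loads acetylcholine into vesicles, was at 47.4 ± 14.7 CPM, and Megf10, a receptor that spaces starburst cell bodies, at 113 ± 47.6 CPM. Gad1 was at 469 ± 48.1 CPM against 279 ± 11.2 CPM in the comparison nuclei, whereas Gad2 was at 13.5 ± 5.42 CPM against 132 ± 15.6 CPM. The rule required at least 1 of these genes, and of the 542 nuclei 539 had a UMI of Gad1 and 41 one of Gad2.

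Of the 4 cholinergic markers, 238 starburst nuclei had UMIs of 2, 239 of 3 and 65 of all 4. At the border of the rule, the nuclei with 2 markers held a mean of 3.38 UMIs of Chat and 2.92 of Slc5a7, and the 416 comparison nuclei with 1 marker held 0.719 and 0.279. The requirement that exclusion genes be absent removed 281 of 823 cholinergic Gad nuclei, 34.1%. Trpm1 was found in 153 of them, Slc6a9 in 91, Abca8a in 79 and Slc17a6 in 35. The Scrublet score marked 56 starburst nuclei (10.3%) as likely doublets, against 4.52% of the comparison nuclei, and these were kept in the main sums. Fitted without the nuclei that Scrublet marked, 2387 genes were higher and 2898 lower in starburst nuclei than in the comparison class, against 2327 and 3012 in the main fit.

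Chat and Slc18a3 share a locus, with Slc18a3 lying inside Chat on the same strand, and both are shown here by the RefSeq promoter windows of mouse build GRCm38.p6, 250 bases before to 50 after the start. Etl4, which encodes a cytoskeletal protein and was among the genes most raised in starburst nuclei, is shown by the 1 of its 3 windows that holds a homeodomain motif. Isl1, a LIM homeodomain factor of starburst cells, belongs to a family that binds such AT-rich sites. Capitals mark TAATTA or TAATTG on either strand. The windows are chr14:32465860-32466159 and chr14:32464801-32465100 on the minus strand and chr2:20289663-20289962 on the plus strand.
Chat: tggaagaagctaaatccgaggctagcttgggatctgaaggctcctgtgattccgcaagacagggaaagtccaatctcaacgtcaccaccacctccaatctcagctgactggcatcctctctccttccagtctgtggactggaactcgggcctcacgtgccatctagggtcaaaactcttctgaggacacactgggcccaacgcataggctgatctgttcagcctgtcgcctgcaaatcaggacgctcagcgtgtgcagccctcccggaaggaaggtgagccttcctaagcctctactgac
Slc18a3: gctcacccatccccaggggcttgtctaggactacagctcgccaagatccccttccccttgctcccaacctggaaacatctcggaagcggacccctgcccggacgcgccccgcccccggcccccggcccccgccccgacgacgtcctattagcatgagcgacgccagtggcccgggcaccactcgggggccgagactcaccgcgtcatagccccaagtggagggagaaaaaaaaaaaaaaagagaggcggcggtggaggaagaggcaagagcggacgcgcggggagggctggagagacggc
Etl4: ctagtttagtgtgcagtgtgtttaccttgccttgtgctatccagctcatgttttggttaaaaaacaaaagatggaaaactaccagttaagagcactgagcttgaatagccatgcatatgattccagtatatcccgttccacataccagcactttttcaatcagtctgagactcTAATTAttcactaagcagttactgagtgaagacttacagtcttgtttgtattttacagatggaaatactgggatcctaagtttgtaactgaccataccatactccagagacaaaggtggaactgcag
The windows of Chat and Slc18a3 held neither motif. The windows of 1 chromosome were not used in the counts that follow. Among the 12 genes most raised in starburst nuclei and Chat, Slc18a3 and Slc5a7, 9 of 15 genes had a window among those used. Of their 15 windows 1 held TAATTA and 0 held TAATTG. Over the 32851 windows used, all of this length, the shares were 5.29% and 8%.

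Against the other Gad nuclei, 2327 genes were higher in starburst nuclei and 3012 lower at an adjusted p under 0.05 (edgeR quasi-likelihood test with the library as a block, Benjamini-Hochberg), which is 17.6% and 22.8% of 13234 genes tested. The 10 genes of the rule were left out. Scaled by library totals in place of TMM, the counts were 1598 and 4226, 12.1% and 31.9% (44% in all), and the median log2FC of all genes moved from -0.02 to -0.18. The split of small differences therefore depended on the scaling. Of the 121 genes followed one by one, Chka and Tenm3 changed direction under it.

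Isl1 and Sox2 were the transcription factors most raised in starburst nuclei among those listed. Isl1 was at 502, 477 and 435 CPM in the saline and 467, 399 and 535 CPM in the IL-27 libraries of starburst nuclei, and at 11.4 to 21.2 CPM in the comparison nuclei. The classes did not overlap in any library (log2FC 4.90 ± 0.09 SE, edgeR adjusted p = 2.71e-21). Sox2, a factor that starburst cells keep after they stop dividing, was at 34.8 ± 3.89 against 2.74 ± 1.08 CPM (log2FC 3.68, edgeR adjusted p = 5.09e-12). Barhl2 was 1.08 higher on the log2 scale. Of 27 factors of amacrine types tested, these 3 were higher and 22 lower, with a median log2FC of -1.11 against -0.02 over all genes. The shares over all genes tested were 17.6% higher and 22.8% lower. Meis2, a factor of many GABAergic amacrine types, was at 131 ± 51.4 against 1474 ± 79.3 CPM. Lhx9 fell by 3.67 and Etv1 by 3.32 on the log2 scale. The general amacrine factors moved far less, with Tfap2b 0.33 and Pax6 0.56 lower in log2FC terms and Tfap2a at 178 ± 7.32 against 193 ± 20.9 CPM (edgeR adjusted p = 0.186).

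The genes with the largest differences included several with known roles in these cells. Frmd7, which is needed for the asymmetric inhibition of direction-selective ganglion cells and is mutated in human infantile nystagmus, was at 90.2 ± 11.1 CPM against 0.929 ± 0.573 CPM. Its lowest starburst library was at 75.5 CPM and its highest comparison library at 1.72 CPM (log2FC 6.54 ± 0.21 SE, edgeR adjusted p = 3.92e-17). P2rx2, an ATP-gated cation channel, was at 57.0 ± 8.29 against 0.913 ± 0.713 CPM (log2FC 5.93). Pdgfc, a growth factor of the PDGF family, was at 419 ± 47.4 against 7.18 ± 2.01 CPM, and Kcnk2, a two-pore potassium channel, at 388 ± 43.6 against 9.26 ± 2.21 CPM. Myo5b, an unconventional myosin of vesicle recycling, and Lmo7, an adherens-junction protein, rose by 5.45 and 5.64 on the log2 scale. Etl4 was at 4743 ± 471 against 113 ± 17.8 CPM (log2FC 5.40). Each of these was higher in starburst nuclei in 6 of 6 libraries. Of 17 genes tested that the literature ties to starburst cells, 12 were higher and 4 lower (over all genes 17.6% and 22.8%). Their median log2FC was 1.29. This list was compiled from work on other retinas, but with results of these data known. The lower ones included the chloride cotransporters Slc12a2 and Slc12a5 (log2FC -0.81 and -0.57) and Sema6a, a guidance protein of ON starburst cells (log2FC -0.21). Sema6a turned to 0.13 when comparison nuclei could hold exclusion genes, and its call was lost in 8 other alternatives, among them those without saline replicate 1 or 6 or IL-27 replicate 4 or 10. Tenm3 did not pass (log2FC 0.00, edgeR adjusted p = 0.971).

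**Figure D1:**
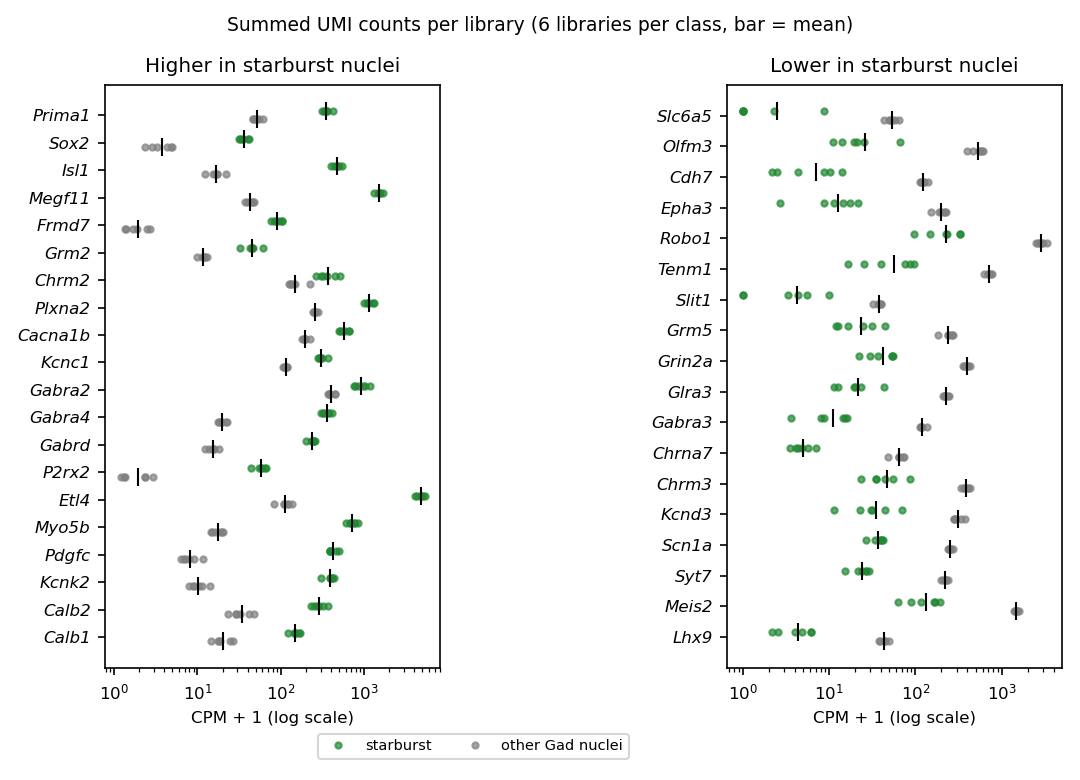
Levels of genes named in the text and of others of the same lists in starburst nuclei (green) and in other Gad nuclei (grey), as CPM + 1 on a log axis, with a point for each of 6 libraries and a bar at the mean of each class. In the left panel the classes do not overlap for any gene, from Gabra2 with 915 against 401 CPM to Frmd7 with 90.2 against 0.929 CPM, and in the right panel starburst nuclei lie below the other class for every gene shown.

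Genes of acetylcholine turnover beyond those of the rule went in both directions. Prima1, which anchors acetylcholinesterase in the membrane, rose from 50.3 ± 5.50 to 351 ± 40.0 CPM (log2FC 2.80, edgeR adjusted p = 1.90e-19). Acetylcholinesterase itself, Ache, was lower, at 7.54 ± 6.01 against 16.1 ± 1.56 CPM (edgeR adjusted p = 0.00432). Of 6 genes of acetylcholine turnover tested, 1 was higher, 3 were lower and 2 did not pass, and 1 of 6 is near the 17.6% of all genes that were higher. Of the lower ones, Slc44a1 (log2FC -0.23) and Pcyt1a (log2FC -0.37) changed their call under 12 and 11 alternatives. Among 8 acetylcholine receptor genes tested, Chrm2, a muscarinic receptor, was the only one called higher (log2FC 1.29), and 5 were lower. The nicotinic subunits Chrna7 and Chrnb3 fell by 3.97 and 3.14, and the muscarinic receptor Chrm3 fell by 3.10 on the log2 scale. Of 5 genes of GABA handling tested, 3 were lower and 0 higher. These small counts of lower genes, 3 of 6, 5 of 8 and 3 of 5, stand beside 22.8% lower over all genes tested. The GABA-degrading enzyme Abat was at 12.6 ± 3.14 against 77.3 ± 3.07 CPM, and the GABA transporter Slc6a11 fell by 1.44 on the log2 scale.

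Receptor subunits went in both directions within families, beside 17.6% higher and 22.8% lower over all genes tested. Of 21 GABA and glycine receptor genes tested, 7 were higher and 13 lower (median log2FC -1.55), although their summed level was higher, at 5291 ± 611 against 3192 ± 106 CPM. The GABA-A subunits Gabra4 and Gabrd, which assemble into receptors outside the synapse, were at 353 ± 40.7 against 19.0 ± 1.91 CPM and at 235 ± 19.9 against 14.2 ± 1.98 CPM. Gabra4 was at 324, 413 and 362 CPM with saline and 331, 382 and 304 CPM with IL-27, so every starburst library lay far above the comparison class, whose highest was 21.6 CPM. Gabrb1 and Gabra2 rose by 2.15 and 1.18 on the log2 scale. In contrast Gabra3 was at 10.1 ± 5.01 against 119 ± 7.87 CPM and the glycine receptor subunit Glra3 at 20.9 ± 11.7 against 223 ± 13.5 CPM. Of 24 glutamate receptor genes tested, 9 were higher and 13 lower (median log2FC -1.10), with sums of 13949.7 ± 725 against 11892 ± 708 CPM. Group II metabotropic receptors were both higher, Grm2 by 2.04 and Grm3 by 1.74 in log2FC, whereas Grm5, a group I receptor, was lower, at 22.8 ± 12.8 against 241 ± 33.0 CPM. Among NMDA receptor subunits Grin2b rose by 1.60 and Grin2a fell by 3.28 on the log2 scale.

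Voltage-gated channels and release genes also went in both directions, beside 17.6% higher and 22.8% lower over all genes tested. The higher counts of both channel families below are near the first share. Of 22 potassium channel genes tested, 4 were higher and 13 lower (median log2FC -0.92), with sums of 6025 ± 417 against 3979.6 ± 219 CPM. Kcnb2, a delayed rectifier, was at 3447 ± 416 against 352 ± 28.9 CPM, and the Kv3 subunits Kcnc1 and Kcnc2, known to limit the spread of depolarization in starburst dendrites, rose by 1.43 and 0.69 on the log2 scale. Kcnd3, an A-type channel, fell by 3.16 on that scale. Of 16 calcium and sodium channel genes tested, 3 were higher and 11 lower (median log2FC -1.32), with sums of 6360.4 ± 306 against 4400.4 ± 219 CPM. The presynaptic calcium channels Cacna1b (N type) and Cacna1a (P/Q type) and the auxiliary subunit Cacna2d1 rose by 1.56, 1.44 and 2.15, and the sodium channels Scn1a, Scn3a and Scn9a fell by 2.78, 3.25 and 2.95 on the log2 scale. Of 39 genes of synaptic release tested, 10 were higher and 19 lower (median log2FC -0.24). Sv2c, a synaptic vesicle protein, and Rims1, an active zone protein, rose by 2.75 and 1.63, and the calcium sensors Syt7 and Syt10 fell by 3.26 and 3.84 on the log2 scale.

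Among guidance and lamination genes, 9 of 42 tested were higher and 27 lower (median log2FC -1.54), beside 17.6% and 22.8% over all genes. Megf11, a relative of Megf10 that also spaces starburst cells, was at 1510, 1531 and 1318 CPM with saline and 1450, 1669 and 1551 CPM with IL-27, against 36.5 to 46.3 CPM (log2FC 5.15, edgeR adjusted p = 1.06e-22). The cell adhesion gene Cdh6 and the semaphorin receptor Plxna2 rose by 3.41 and 2.16 on the log2 scale. Robo1, a receptor of Slit proteins, was at 225 ± 93.1 against 2855 ± 292 CPM, and Tenm1, a teneurin, at 55.8 ± 33.5 against 708 ± 47.9 CPM. Of 8 gamma protocadherins tested, which starburst dendrites use to avoid their own branches, 2 were higher and 0 lower. These were Pcdhga6 (log2FC 0.97, edgeR adjusted p = 0.0255) and Pcdhga12 (log2FC 0.62, edgeR adjusted p = 0.0170), and both missed the threshold under several alternatives.

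The label was also checked against markers of other cells, whose counts stand beside 17.6% higher and 22.8% lower over all genes tested. Of 16 genes tested that mark other amacrine types, 9 were lower, among them the glycine transporter Slc6a5 (1.51 ± 3.11 against 52.4 ± 7.41 CPM) and the peptide Vip (2.06 ± 1.62 against 39.1 ± 11.4 CPM), and 5 were higher. The 5 included the calcium-binding proteins Calb2 (288 ± 51.2 against 32.8 ± 9.06 CPM), Calb1 (log2FC 2.96) and Pvalb (log2FC 2.34), which starburst cells are known to contain in part. Th and Slc6a3 of dopaminergic cells and Sst had no UMI in any starburst nucleus. Rod markers were lower in 10 of 10 genes, with summed levels of 294 to 530 CPM in starburst nuclei and 421 to 1658 CPM in the comparison class. Cone markers were lower in 7 of 8 and higher in 1, Thrb, with sums of 494 to 738 against 689 to 871 CPM, and Muller markers in 6 of 9 tested and higher in 0, with sums of 279 to 395 against 623 to 748 CPM. Bipolar markers were lower in 7 of 9 tested and higher in 1, Isl1, with sums of 1181 to 1302 against 1413 to 1719.7 CPM, and ganglion cell markers in 1 of 6, with sums of 46.3 to 123 against 78.3 to 137 CPM. Horizontal cell markers went the other way: of 4 tested Calb1 and Sept4 (log2FC 1.11) were higher and 0 lower, with sums of 225 to 444 against 126 to 182 CPM, so the classes did not overlap. The part of these cells in the differences above was not tested.

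P2ry12, the purinergic receptor commonly used to mark microglia, was also higher. In starburst nuclei P2ry12 was at 850, 750 and 752 CPM with saline and at 925, 714 and 916 CPM with IL-27, against 64.2 to 89.6 CPM in the comparison nuclei (log2FC 3.48 ± 0.06 SE, edgeR adjusted p = 3.14e-21). It was higher in 6 of 6 libraries, and its log2FC stayed between 2.94 and 3.59 under every alternative run. Of the other 7 microglia markers 5 were tested and 0 were higher, while Aif1 and Tmem119 were too low to be tested. Cx3cr1 was at 21.1 ± 6.45 CPM (log2FC -0.04), and C1qa, C1qb, Csf1r, Aif1 and Tmem119 were at 0.952 to 5.94 CPM. In 634 nuclei with UMIs of at least 2 of Cx3cr1, Csf1r and Tmem119, C1qa and C1qb, which did not choose them, were at 206 ± 60.2 and 183 ± 57.8 CPM, and P2ry12 was at 232 ± 84.4 CPM, below its starburst level. Levels of these 634 nuclei were scaled separately from those of the starburst nuclei.

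P2ry12 lies inside Med12l, a Mediator subunit gene, on the opposite strand in the GENCODE M21 annotation, and so do P2ry14, P2ry13 and Gpr171. All of these were higher in starburst nuclei by a similar factor. Med12l was at 1846 ± 227 against 185 ± 22.2 CPM (log2FC 3.32). P2ry14, a receptor of UDP-sugars, was at 1799 ± 165 against 162 ± 19.7 CPM (log2FC 3.48), and Gpr171 and P2ry13 had log2FCs of 3.35 and 3.67. Igsf10, which overlaps one end of Med12l, had a log2FC of 2.71. In the microglial nuclei P2ry14 was at 82.8 ± 36.4 CPM and Med12l at 232 ± 57.4 CPM. These neighbours were picked after the value of P2ry12 was seen. The paper names Chromium 3' libraries and Cell Ranger, and does not state the strand setting of the counting. Whether reads of a gene entered the count of its antisense partner was not tested.

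**Figure D2:**
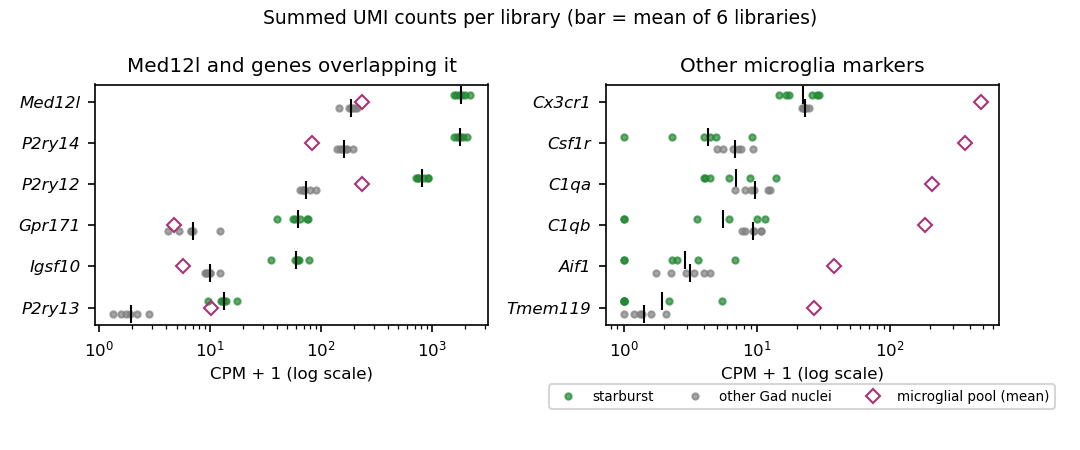
Levels of Med12l and of genes that overlap it (left) and of further microglia markers (right) in starburst nuclei (green), other Gad nuclei (grey) and, as the mean of 6 libraries, nuclei with microglial transcripts (diamonds), as CPM + 1 on a log axis. P2ry12 is at 818 CPM in starburst and 232 CPM in microglial nuclei, and C1qa is at 5.94 and 206 CPM. Cx3cr1, Csf1r and Tmem119 chose the microglial nuclei, whose levels were scaled separately.

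Other named genes overlapped with further genes as well, and how common this is among all genes was not counted. Sox2ot, a long noncoding RNA gene, was at 2205 ± 246 against 23.9 ± 5.30 CPM (log2FC 6.53). Sox2 (log2FC 3.68) lies inside Sox2ot on the same strand, and whether reads of Sox2ot entered the count of Sox2 was not tested. Gm38505 and Gm42695, which lie inside Sox2ot on the opposite strand, had log2FCs of 6.49 and 6.18. Gm16000 lies antisense inside Pdgfc (log2FC 5.93 and 5.86), and Gm17171 and Gm13362 lie antisense inside Etl4 (5.23 and 5.24 beside 5.40). The same held for lowered genes, with Gm20631 at -4.24 inside Hmcn1 at -4.01. The counts of raised and lowered genes therefore hold such pairs as separate entries. The most lowered genes were led by A330049N07Rik (0.935 ± 1.45 against 58.8 ± 9.22 CPM) and Steap3, a metalloreductase (1.40 ± 1.43 against 52.3 ± 5.65 CPM), followed by the adhesion and signalling genes Olfm3, Cdh7, Epha3 and Hgf, with log2FCs of -4.35, -4.32, -3.99 and -4.15.

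Starburst nuclei themselves fell apart by Tenm3 and Slit2, a teneurin adhesion protein and a secreted guidance protein. Among 508 nuclei with at least 3 UMIs of these genes together, Tenm3 made up 90% or more of them in 247 nuclei and under 10% in 195, and each of the 8 steps between held 4 to 13 nuclei. Nuclei with a Tenm3 share of at least 80% (260) or at most 20% (210) were called the Tenm3 type and the Slit2 type, and 38 were mixed. The Scrublet score marked 63.2% of the mixed nuclei, against 6.54% of the Tenm3 type and 5.71% of the Slit2 type. The division was chosen after these values were seen, so what follows is a description without a test.

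Of 3983 genes at 50 CPM or more in either type, 7.21% had ranges over 6 libraries that did not overlap. By this measure 187 were higher in the Tenm3 type and 100 in the Slit2 type. Tenm3 and Slit2 chose the types, so their own ranges lay apart through that choice. Chrm2 was at 702 ± 88.4 CPM in the Tenm3 type and 34.6 ± 32.9 CPM in the Slit2 type. Rnd3, a small GTPase reported in OFF starburst cells, was at 122 ± 38.2 against 6.73 ± 3.13 CPM. Sema6a, known from ON starburst cells, did not follow the division, at 322 ± 56.8 and 323 ± 60.1 CPM, and was higher in the Tenm3 type in 3 of 6 libraries. Egfem1 (3244 ± 427 against 289 ± 52.7 CPM), the phosphodiesterase Pde4b (1036 ± 191 against 98.1 ± 24.7 CPM) and the homeobox gene Zfhx3 (588 ± 63.2 against 62.8 ± 41.7 CPM) followed the same side. Receptor and channel subunits did too, with Gabra4 at 607 ± 47.0 against 114 ± 46.5 CPM, Kcnc2 at 1987 ± 305 against 587 ± 123 CPM and P2rx2 at 82.4 ± 9.71 against 38.4 ± 6.29 CPM.

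On the side of the Slit2 type, the contactin Cntn5 was at 3073 ± 259 CPM against 127 ± 50.9 CPM in the Tenm3 type, and Clstn2, a calsyntenin, at 810 ± 55.2 against 72.5 ± 22.8 CPM. Nrg1, a ligand of ErbB receptors, was at 3308 ± 286 against 406 ± 260 CPM, the channel Trpc4 at 541 ± 32.4 against 132 ± 25.0 CPM, and Zfhx4 at 287 ± 34.7 against 78.5 ± 29.9 CPM. Grm3 was at 854 ± 52.2 against 389 ± 75.2 CPM. Some genes of starburst cells had overlapping ranges in the types and others did not. Chat was at 525 ± 60.0 CPM in the Tenm3 type and 506 ± 30.3 CPM in the Slit2 type, Slc5a7 at 420 ± 92.7 and 479 ± 129 CPM, Isl1 at 505 ± 61.2 and 506 ± 76.3 CPM, and Megf11 at 1664 ± 153 and 1548 ± 111 CPM, with ranges that overlapped. Of these, Chat and Slc5a7 belong to the rule. Frmd7 ranged from 90.6 to 161 CPM in the Tenm3 type and from 56.6 to 89.1 CPM in the Slit2 type, Prima1 from 414 to 630 against 191 to 316 CPM, and Cacna1b from 648 to 792 against 374 to 559 CPM, so their ranges lay apart.

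**Figure D3:**
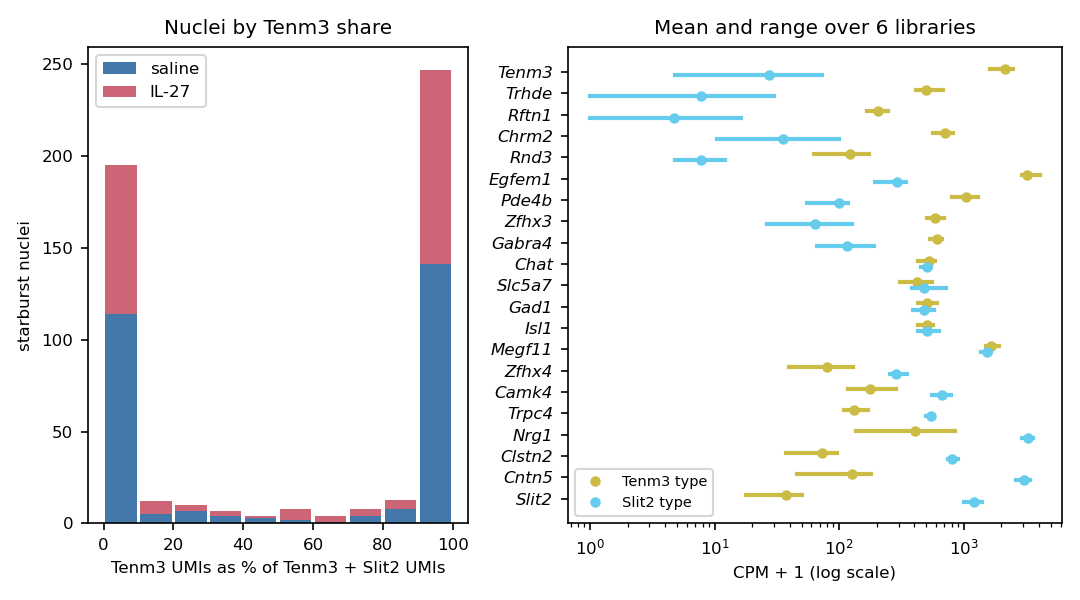
Left, the number of starburst nuclei by the share of Tenm3 in their UMIs of Tenm3 and Slit2, in steps of 10%, with saline nuclei in blue and IL-27 nuclei in red stacked on them. Right, mean (point) and range (line) over 6 libraries of the level of 21 genes in the Tenm3 type (yellow) and the Slit2 type (light blue), as CPM + 1 on a log axis. The outer steps hold 195 and 247 nuclei, and Chat, Slc5a7, Gad1, Isl1 and Megf11 overlap between the types.

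Fezf1, a zinc-finger factor that sets the ON starburst identity, was seen in few nuclei. A UMI of Fezf1 was found in 10 of 542 starburst nuclei, 1.85% (95% exact binomial interval 0.888% to 3.37%), and in 9 of 5746 comparison nuclei, 0.157% (0.0716% to 0.297%). Of the 10 nuclei, 9 were of the Slit2 type, 4.29% of that type (1.98% to 7.98%). None was of the Tenm3 type, where a count of 0 in 260 nuclei allows up to 1.15%, and the remaining 1 had too few UMIs to be placed. Nuclei without a UMI of Fezf1 include those in which it was missed, and the intervals cover counting error only.

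Each library had only 1 to 3 Fezf1 nuclei, and their sums held 5904 to 19025 UMIs. For saline replicate 2 and IL-27 replicates 4 and 5 the sum was a single nucleus. The p-values of this fit therefore cannot separate spread between libraries from spread between single nuclei. Against the other starburst nuclei of the same library, 0 genes were higher and 146 lower (edgeR adjusted p under 0.05, library as a block, 3.19% of 4582 tested). That split moved with the scaling, since TMM put the median log2FC of all genes at -0.58. With library totals, where the median was -0.005, 10 genes were higher and 24 lower (0.218% and 0.524%, 0.742% in all), and DESeq2 gave 6 and 19. Genes lower under both scalings included Tenm3, which had 0 UMIs in the Fezf1 nuclei and 1113 CPM in the others. Against the 46.2 CPM that 3 counts in all Fezf1 nuclei would make, Tenm3 was at least 24.1-fold lower. Sgcz, a sarcoglycan, was at 969 ± 564 against 4521 ± 416 CPM (edgeR adjusted p = 3.52e-29), and Egfem1 at 272 ± 206 against 1683 ± 294 CPM, lower in 6 of 6 libraries. With library totals, Nrg1 (3380.5 ± 702 against 1543 ± 255 CPM, edgeR adjusted p = 1.93e-07) and Cntn5 (2718 ± 714 against 1312 ± 195 CPM, edgeR adjusted p = 3.55e-05) were higher in 6 of 6 libraries. With TMM their log2FCs were 0.50 and 0.40 and did not pass.

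IL-27 was compared with saline first by the number of starburst nuclei. There were 111, 90 and 106 starburst nuclei with saline and 80, 83 and 72 with IL-27. They made up 9.26%, 9.53% and 9.29% of the Gad nuclei without an exclusion gene with saline and 8.34%, 7.93% and 7.21% with IL-27. The IL-27 mean of 7.83 ± 0.570% lay 1.53 percentage points below the saline mean of 9.36 ± 0.151% (SD, n = 3), and the groups did not overlap. The 2-sided exact permutation test gave p = 0.1, the smallest that 3 against 3 allows, so this design cannot reach 0.05. Of all retained nuclei, starburst nuclei were 1.09 ± 0.0630% and 0.839 ± 0.0676% (exact p = 0.1). The difference moved with the rule. With at least 3 of the 4 markers required it was 0.093 points (4.80% with IL-27 and 4.90% with saline, exact p = 0.8), and with the exclusion genes unused for both classes it was 0.495 points (exact p = 0.7). With at least 3 Gad UMIs required the groups overlapped, at 13.96 ± 3.75% with IL-27 and 15.77 ± 0.713% with saline (exact p = 0.5). Without marked doublets and with Megf10 unused the groups stayed apart, by 1.59 and 1.39 points (exact p = 0.1 for both). Of all retained nuclei, the difference was 0.371 points with the exclusion genes unused (exact p = 0.1), and 0.047 points with 3 markers required (exact p = 0.5). IL-27 libraries also had fewer UMIs in all, as the ranges of 36678332 to 42528040 and 43000264 to 48260748 show. Per nucleus, the median for starburst nuclei was 7465, 7992 and 6651.5 UMIs with saline and 8650, 8413 and 7256.5 with IL-27. For comparison nuclei it was 5244.5, 5768.5 and 4867 UMIs with saline and 5323, 5588 and 4656.5 with IL-27. After each nucleus was thinned to 3000 UMIs, with shallower nuclei left out, the shares of Gad nuclei were 6.29% and 7.76% (exact p = 0.1), and those of retained nuclei 0.879% and 1.07% (exact p = 0.3). The part of depth was not tested further.

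**Figure D4:**
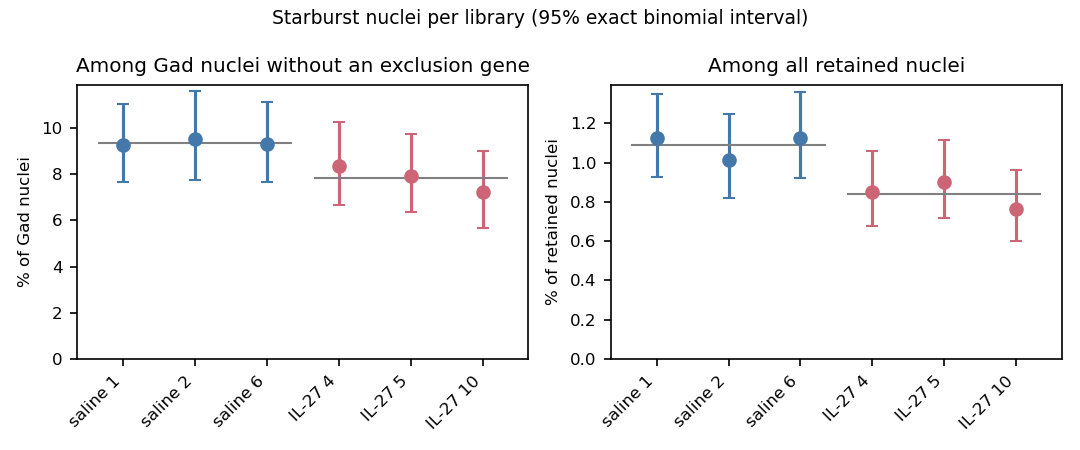
Starburst nuclei as a percentage of Gad nuclei without an exclusion gene (left) and of all retained nuclei (right) in each library, saline in blue and IL-27 in red. Bars are 95% exact binomial intervals and grey lines group means. The 3 IL-27 libraries lie below the 3 saline libraries in both panels, while the intervals of single libraries overlap.

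The shares of the types overlapped between the groups. The Slit2 type made up 51.6%, 35.6% and 46.6% of the nuclei of both types with saline and 51.5%, 38.7% and 44.1% with IL-27. The Fezf1 share was 1.90 ± 0.796% with saline and 1.74 ± 0.895% with IL-27 (exact p = 1). With nuclei thinned to 3000 UMIs, which kept 189 saline and 134 IL-27 starburst nuclei, it was 2.15 ± 0.826% and 0% (exact p = 0.1). On 1 to 3 Fezf1 nuclei per library, a difference of this kind was not detectable at this depth.

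No gene of starburst nuclei passed the test between IL-27 and saline. Of 8517 genes tested, 0 were called by edgeR and 0 by DESeq2 (0% in each direction). At an unadjusted p under 0.05 edgeR had 166 higher and 148 lower, which is 1.95% and 1.74%, and DESeq2 had 54 and 36. In 380 genes the IL-27 libraries all lay above the saline libraries and in 384 below, 4.46% and 4.51%. In the comparison class 0 genes were called as well. The test of whether the response differed between the classes called 0 of 14180 genes, with 285 and 327 at an unadjusted p under 0.05, and DESeq2 called 0 with 77 and 84.

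The genes with the smallest p among those without overlap are given by value. Gm16272, a noncoding gene, was at 2.32, 8.93 and 7.58 CPM with saline and 25.8, 46.1 and 18.8 CPM with IL-27 (log2FC 2.28 ± 0.46 SE, edgeR adjusted p = 0.711). Rbms3, an RNA-binding protein, was at 63.8, 48.5 and 40.4 CPM with saline and 81.9, 92.2 and 128 CPM with IL-27 (log2FC 0.96). Kazn, Phactr1 and Pak7 had log2FCs of 1.08, 0.73 and 1.21. On the other side Gabra5, a GABA-A receptor subunit, was at 23.2, 44.6 and 29.1 CPM with saline and 10.6, 11.5 and 1.70 CPM with IL-27 (log2FC -1.95 ± 0.43 SE, edgeR adjusted p = 0.711). The ribosomal protein gene Rps3a1 was at 95.2, 57.4 and 94.8 CPM and at 37.9, 40.3 and 49.4 CPM, and 4933413L06Rik, Nell1 and Camk2n1 had log2FCs of -1.48, -2.05 and -0.69. None of these passed the test. Without the filter on low counts edgeR called 16 genes higher and 11 lower, among them 8 of these 10, with Kazn and Camk2n1 as the exceptions.

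Single genes passed in some fits that left out a library or nuclei. Hs6st3, a heparan sulfate enzyme, was at 99.8, 77.8 and 27.8 CPM with saline and at 39.4, 605 and 240 CPM with IL-27, and was called higher without IL-27 replicate 4 and without marked doublets. Grik1, a kainate receptor subunit, was at 215, 190 and 196 CPM with saline and 98.5, 161 and 47.7 CPM with IL-27. It was called lower without IL-27 replicate 5 and, with Cntnap5a, when 3 of the 4 markers were required. Hs6st3, Grik1 and Cntnap5a are named here because these fits called them.

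Genes of the rule and of the IL-27 pathway did not pass either. Chat had a log2FC of -0.08, Slc5a7 of 0.16 and Gad1 of -0.12, and Megf10 was at 84.7, 107 and 67.0 CPM with saline and 72.8, 183 and 143 CPM with IL-27 (log2FC 0.63). Il27ra, the specific chain of the IL-27 receptor, had 0 UMIs in 542 starburst nuclei, which allows up to 0.554% of nuclei with a UMI and 0.660 CPM in the sum of all their UMIs. In the comparison nuclei it was at 0.116 ± 0.182 CPM. The shared chain Il6st was detected, at 30.2, 19.1 and 30.3 CPM with saline and 24.3, 41.8 and 32.4 CPM with IL-27. Of 11 receptor and JAK-STAT genes tested, 0 passed, with a median log2FC of 0.14 against 0.001 over all genes. Of 18 interferon-response genes tested, 0 passed and 10 had a positive log2FC (median 0.12). All 5 cone markers tested had a negative log2FC (median -0.75) and 0 passed. Stat3 and Stat2, both transducers of cytokine signals, were higher in starburst than in comparison nuclei (log2FC 1.06 and 0.90), and Jak2 and Il6st were lower (log2FC -1.09 and -0.59).

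**Figure D5:**
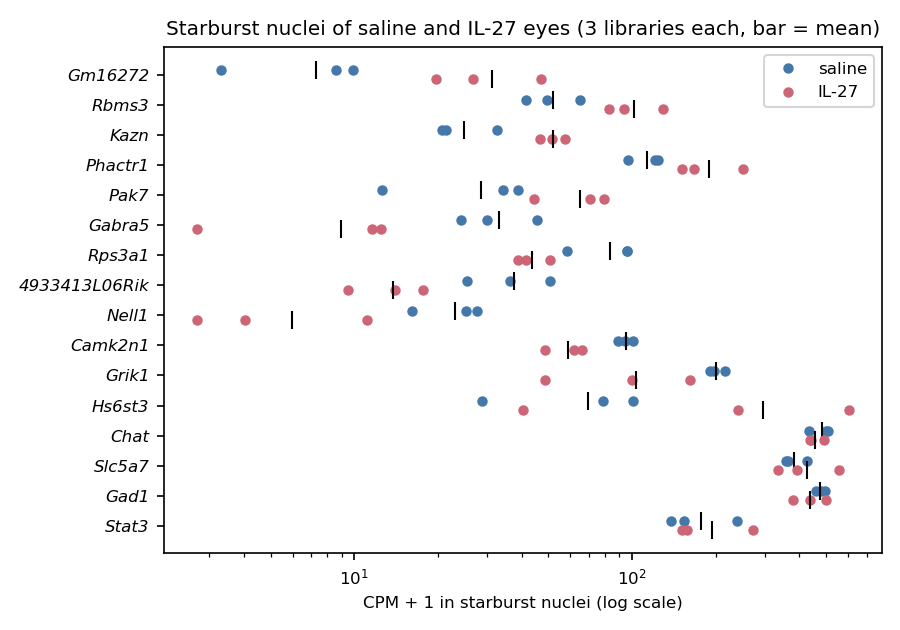
Levels in starburst nuclei of the 10 genes with the smallest p and no overlap between groups, of Grik1 and Hs6st3, and of Chat, Slc5a7, Gad1 and Stat3, as CPM + 1 on a log axis, with a point per library (saline blue, IL-27 red, 3 each) and a bar at the group mean. No gene shown passed the test across 8517 genes, and the groups overlap for Hs6st3, Chat, Slc5a7, Gad1 and Stat3.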

How the data were processed

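Nuclear RNA of 6 retinas was sequenced as droplet libraries, and the authors deposited whole UMI counts per gene for each barcode that Cell Ranger had called, without normalization. The processing notes name Cell Ranger 9.0.1 and Seurat 5.2.1, and the file headers Cell Ranger 8.0.1. The genome build is not given in the sources used here. The study then filtered the nuclei and removed doublets with DoubletFinder. The deposited barcodes were not yet filtered in this way, since some fail its limits.

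The limits of the study were applied to barcodes: a UMI total above 500, 200 or more detected genes, and a mitochondrial share below 5%. Doublets were scored with Scrublet in scanpy 1.11.5 at 8% per library and left out only as an alternative. Sums per library and class went through filterByExpr (minimum 10), TMM scaling and the quasi-likelihood test of edgeR 4.0.16 (R 4.3.3) at an adjusted p of 0.05, the library being a block between classes because both classes come from the same library. CPM come from each fit's own scaled totals, and from library totals for Fezf1 nuclei. Those of the Tenm3 and Slit2 types and of the microglial nuclei come from separate TMM scalings over all genes. Shares were compared over libraries with exact permutation tests in scipy 1.17.1. The fits were tested on simulated counts, in which the Fezf1 fit with TMM scaling recovered few of the changed genes. Other tools were DESeq2 1.42.0, Python 3.11.15, numpy 2.4.6, pandas 2.3.3 and matplotlib 3.10.9.

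The single genes described were all of the cholinergic and literature lists, the 12 genes per direction with the largest log2 fold change among those called in 6 of 6 libraries at 50 CPM or more, up to 4 called genes per other list by size, for IL-27 the 5 smallest p per direction without overlap, and for Fezf1 the 10 smallest p per direction. Further members of a list named above, and the neighbours of P2ry12 and Etl4, were chosen after their values were seen. The members, lists and tests were chosen with earlier results of these data known.

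Alternatives were DESeq2 and its size factors, no filter or 30 counts, marked doublets or outlier nuclei left out, at least 3 of the 4 markers, Megf10 unused, nuclei of 5000 to 20000 UMIs, other comparison classes, at least 3 Gad UMIs, at least 2 UMIs of Fezf1, thinning to 3000 UMIs, no library block and each library left out in turn. Library totals, exclusion genes unused for either class and a covariate for the libraries with high Xist were added after the values were seen. Some genes are not reported here.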

Additional observations from a re-analysis of the deposited data

How the results depend on the processing

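No paired analysis was possible because the saline and IL-27 libraries share no replicate numbers. Between classes the library was a block. With no replicate block, 2242 genes were higher and 2901 lower in starburst than in comparison nuclei, and 6 and 305 in Fezf1 nuclei. Every alternative kept the count of genes between starburst and comparison nuclei within 1.5 times in each direction. Of the 121 genes followed in that comparison, 22 lost their call under at least 1 alternative and 4 changed sign. Chka changed to -0.0063 with library totals, Sema6a to 0.13 when comparison nuclei could hold exclusion genes, and Slc44a1 to 0.047 with at least 3 Gad UMIs. Tenm3 was at -0.039 without the filter, -0.16 with library totals, -0.049 without outlier nuclei, -0.090 with 3 markers, -0.045 at 5000 to 20000 UMIs, -0.063 with 3 Gad UMIs and -0.064 to 0.075 when a library was left out. The cause was not tested.

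The number of starburst nuclei was 304 with 3 markers, 486 without marked doublets and 823 with exclusion genes unused. Between IL-27 and saline, 16 genes were higher and 11 lower without the filter, 1 was higher without doublets, 2 were lower with 3 markers, and 0 to 1 passed in each direction when a library was left out. For the difference in response between classes these were 20 and 11 without the filter, 1 higher without doublets, 3 and 8 with 3 markers, and 0 to 2 higher and 0 to 1 lower with a library left out. A covariate for the libraries with high Xist, 1 in each group, gave 0 calls.

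In Fezf1 nuclei 6 genes were higher and 19 lower with DESeq2, 7 and 24 with its size factors, 10 and 24 with library totals, 3 and 459 without the filter and 6 and 52 at 30 counts. Lower genes numbered 87 without doublets, 79 without outlier nuclei, 73 with 3 markers and 34 with 2 UMIs of Fezf1, and with a library left out 0 to 1 were higher and 79 to 135 lower, the 79 without IL-27 replicate 5. Cntn5 changed to -0.072 without the filter and -0.013 with 3 markers. Ube3a changed to -0.32 without the filter, -0.22 with 3 markers and -0.38 with 2 UMIs of Fezf1, and lay between -0.044 and 0.25 with a library left out. The Fezf1-positive share of starburst nuclei, IL-27 vs saline, changed to 0.101 points with 2 UMIs of Fezf1 and lay between -0.673 and 0.245 points with a library left out.

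The 72 to 111 starburst nuclei and 608263 to 891983 UMIs per library and the 3 libraries per group limit the IL-27 comparison, and the 10 Fezf1 nuclei that of Fezf1. Starburst identity rests on 4 markers that shallow nuclei can miss.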
